A study of Mus musculus with 6 samples.

Results

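The genes described here are 48 mouse genes of DNA replication and S phase, taken by their symbol from a fixed list of origin licensing, polymerase, clamp loading, nucleotide supply and E2F genes. All 48 were found among the 17313 genes of the deposited table, and all 48 reached 10 in 3 or more libraries and so were tested. The list was made by function, and no measured value enters the rule, but it was chosen with earlier results of these data known. Expression was measured by single-read mRNA-seq in macrophages grown in culture from bone marrow (bone marrow-derived macrophages) of C57BL/6 mice. Every mouse carried Hdac2fl/fl, a floxed allele of the histone deacetylase gene Hdac2, and had received LLC1 cells, a Lewis lung carcinoma line, through a vein, with marrow taken at day 20. Mice without Cre are called WT (3 libraries) and mice that also carried LysMCre, a Cre recombinase active in cells of the myeloid lineage, are called KO (3 libraries), so WT here means floxed and undeleted, and tumour-bearing in both groups. Neither the age of the mice nor whether each library came from its own mouse is stated in the labels. The p-values therefore speak only of the spread among these libraries. How much of that spread is technical is not known, and the WT libraries differed widely in the sex-linked RNA given below.

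A cell copies its genome by loading rings of MCM2 to MCM7 onto origins in G1, with ORC, CDC6 and CDT1 as the loaders, and by switching those rings on in S phase with CDC45 and the GINS complex. Polymerase alpha with primase starts each strand, polymerases epsilon and delta extend it on the sliding clamp PCNA, and ribonucleotide reductase, thymidylate synthase and their partners supply the deoxynucleotides. Many of these genes are transcribed under E2F factors, of which E2F1 and E2F2 act as activators and E2F7 and E2F8 as repressors. Macrophages grown from marrow with M-CSF divide in culture before they stop cycling, so their RNA holds transcripts of this kind.

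The promoters of the members were examined first for E2F-type letters, because they show what the genes share apart from their RNA levels. RefSeq promoter windows (GRCm38.p6, from 250 bases before to 50 after a start site) were matched for 40 of the 48 members. Gins1, Gins2, Pole, Prim2, Ccne2, Rfc2, Mcm4 and Gmnn were not matched. TTTGGCGC or TTTCCCGC, the main E2F-type strings, were present on either strand in 14 of the 40 genes, or 35.0% (exact 95% binomial interval 20.6 to 51.7). Among all 27025 genes with a window the share was 1.80%, and among the 10176 of them that were tested here it was 3.47%. With TTTGGCGG, TTTCCCGG and TTGGCGGG added, of which TTTGGCGG and TTGGCGGG can overlap, 20 of the 40 members held at least 1 string, against 8.24% of tested genes. CCAAT was present in 62.5% of the members and 43.0% of the tested genes, and TTTGAA, the core of the cell cycle homology region bound in mitotic promoters, in 17.5% and 14.4%. A match describes letters only and is not a measured binding site.

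The stretches below are shown because they place the E2F-type string, in capitals, in a member from each of several steps of replication. Each is read in the direction of the string.
Mcm6, chr1:128359797-128359826, minus strand: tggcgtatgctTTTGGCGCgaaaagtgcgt
Mcm6, chr1:128359734-128359763, minus strand: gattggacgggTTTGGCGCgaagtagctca
Mcm5, chr8:75109349-75109378, minus strand: aggctggacgtTTTGGCGCgaaagttcttg
Pola1, chrX:93632275-93632304, plus strand: gcgggagtgcaTTTGGCGCcctgtgatgac
Mcm7, chr5:138172030-138172059, plus strand: tggacaccctgTTTCCCGCggttcgaaatt
Cdc6, chr11:98908002-98908031, minus strand: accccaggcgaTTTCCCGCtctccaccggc
Gins3, chr8:95633507-95633536, minus strand: ttcaaactcgcTTTCCCGCgccgcactcgc
E2f7, chr10:110745230-110745259, minus strand: acgcgggagcgTTTCCCGCggggacgcggg
Among the 14 members with the main strings, the log2 difference between the genotypes ran from -0.11 ± 0.079 (SE) in Cdt1 to 0.41 ± 0.16 in E2f2. Of the genes shown above, Mcm6 had -0.04 ± 0.052 and E2f7 0.38 ± 0.11. None of these passed the test described with their values, and the sign in Mcm6 changed under cyclic loess.

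The 250 bases before the start site of Mcm6 are given whole, because this gene had the highest level per length and both of its matches lie in them (chr1:128359706-128359955, minus strand).
Mcm6 upstream: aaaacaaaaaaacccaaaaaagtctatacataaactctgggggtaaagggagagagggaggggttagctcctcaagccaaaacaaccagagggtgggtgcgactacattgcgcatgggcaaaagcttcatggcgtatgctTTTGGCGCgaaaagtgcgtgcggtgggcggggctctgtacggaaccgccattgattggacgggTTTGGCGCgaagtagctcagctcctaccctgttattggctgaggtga

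Values are the authors' rounded whole numbers per gene, treated as reads scaled for each library and called scaled counts, with totals of 5704313 to 5837994 per library. Hdac2 was at 534, 482 and 518 in WT, against 392, 387 and 375 in KO, so the groups did not overlap and the ratio of the means, KO to WT, was 0.752. The log2 difference was -0.41 ± 0.057 (limma adjusted p = 0.158), and an exact two-sided permutation test gave p = 0.1, the smallest that 3 against 3 allows. The libraries also differed in ways the genotype does not give. Xist stood at 5243 in WT 1, 0 in WT 2, 74 in WT 3 and 3298 to 4997 in KO, so WT 2 and WT 3 differ in Xist from the other 4 libraries. The 4 Y-linked genes Ddx3y, Kdm5d, Eif2s3y and Uty had every KO library below every WT library, where 13.4% of all tested genes did so. Xist and these 4 genes together summed to 5380 in WT 1, 1372 in WT 2 and 2174 in WT 3. The KO sums were 4745, 4998 and 3298. WT 1 thus held Xist together with Y-linked RNA, but Xist made up nearly all of its sum, unlike in WT 2 and WT 3. On the first principal component of all tested genes (78.6% of the variance), WT 1 was at -12.7, WT 2 at 72.0 and WT 3 at 54.6. The KO libraries were at -51.5, -42.5 and -19.9. With all 6 libraries, genotype cannot be told apart from the difference in Y-linked RNA. Macrophage markers were present in all libraries (10 of 10 tested, summed level 12720 to 13685 in WT and 11495 to 12242 in KO). Fibroblast and marrow stroma markers (12 of 12 in the table) summed to 6751 to 15350 in WT and 15691 to 19766 in KO. Of the other markers, 1 of 10 neutrophil, 2 of 5 B cell and 0 of 5 erythroid genes had a row. Blood progenitor markers (6 of 8) summed to 264 to 366 in WT and 317 to 399 in KO. Of the 4 progenitor markers tested, 3 had every KO library above every WT library and 1 below, beside 16.1% and 13.4% of all tested genes. Their log2 differences ran from -0.56 to 2.13. Of the LLC1 or epithelial markers 2 of 5 had a row, with sums of 2 to 25 in WT and 74 to 101 in KO, nearly all of it Krt19. Osteoclast markers (6 of 7) summed to 1642 to 2423 in WT and 1198 to 1331 in KO, T and NK cell markers (2 of 6) to 18 to 31 and 32 to 49, and megakaryocyte markers (3 of 4) to 289 to 324 and 297 to 306. The neutrophil sum was 20 to 26 in WT and 9 to 15 in KO, and the B cell sum 10 to 21 and 29 to 40. The part of these other cells in the values of replication genes was not tested, and in bulk RNA fewer cycling cells cannot be told apart from less of each transcript per cycling cell.

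Replication genes were expressed in every library and at similar levels in the genotypes. Values ran from 71 to 1329 scaled counts, and together the members took 0.375% to 0.437% of a library. Per kilobase of exon union, the scale on which genes are compared, the members had a median of 90.9 scaled counts, against 67.6 for all tested genes. Mcm6 led at 266, followed by Mcm3 at 259, the flap endonuclease gene Fen1 at 240, Mcm4 at 237, Mcm5 at 234 and the DNA ligase gene Lig1 at 223. Orc1, which encodes the largest subunit of the origin recognition complex, was lowest at 32.9, below E2f7 at 43.5 and Tyms at 44.4. The subunits of the MCM ring, which assemble in equal numbers, had RNA levels per kilobase from 133 for Mcm2 to 266 for Mcm6, a ratio of 2.0. Exon unions include exons of rare transcripts, so these levels depend on the annotation.

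**Figure D1:**
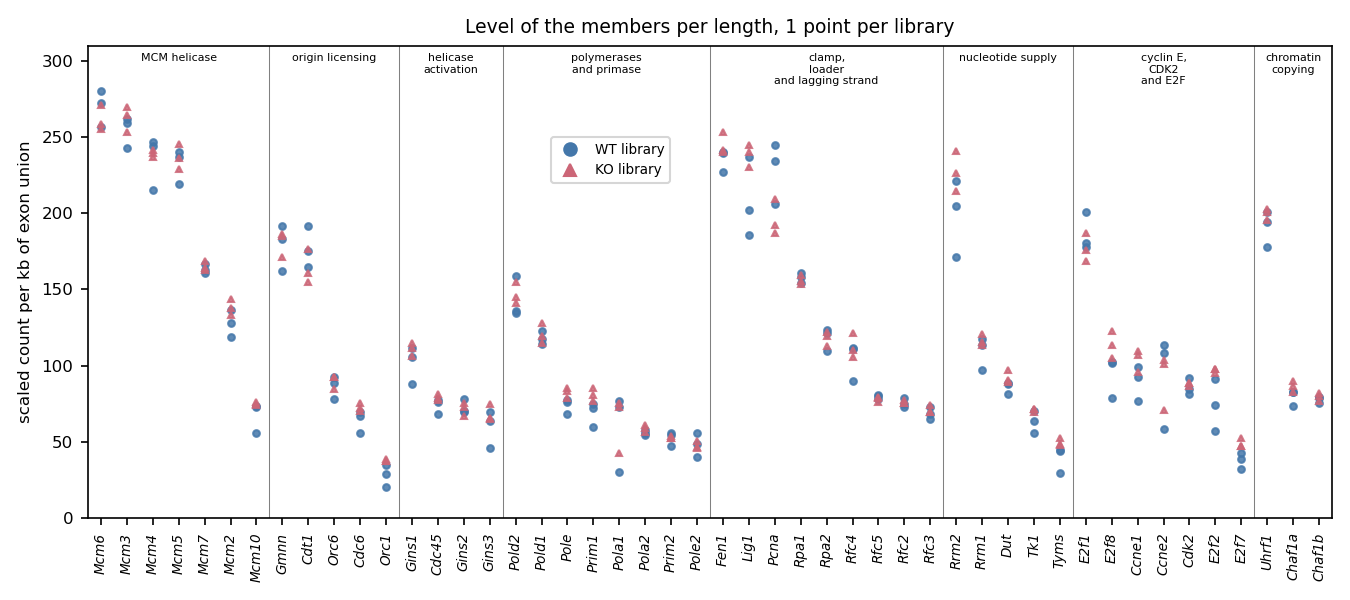
Level of each member per kilobase of exon union (scaled counts, linear axis from 0), with 1 point per library, circles for WT and triangles for KO, grouped by role. Mcm6, Mcm3 and Fen1 had the highest means, and WT and KO points overlapped for most genes, while Pola1 and Ccne2 each had a low WT and a low KO point.

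No member passed the test of KO against WT. With limma on log2(value + 1) and Benjamini-Hochberg adjustment over all 13260 tested genes, 0 of 48 had an adjusted p under 0.05, where 0.0% of all genes did. At an unadjusted p under 0.05, 3 members were higher in KO (E2f2, E2f7 and Pole), against 14.7% of all genes, and 1 was lower (Pcna), against 9.68%. In 10 members all KO libraries lay above all WT libraries, where 16.1% of all genes did so, and in 0 members below, where 13.4% did so. On the log2 scale 40 of 48 members had the higher mean in KO, or 83.3% against 49.1% of all tested genes. Their median difference was 0.06, beside -0.0046 for all tested genes. The differences were small: 43 members lay within 0.25 of 0 on the log2 scale, or 89.6% against 69.1% of all tested genes. The median absolute difference of the members was 0.086, against 0.137 over all tested genes.

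The direction rested largely on WT 2. WT 2 held the lowest value of 39 of the 48 members, against 27.7% of all tested genes, and in all 10 members without overlap it was the lowest library. Averaged over the members, its log2 value minus the mean of the 6 libraries was -0.198, while WT 1 and WT 3 stood at 0.031 and 0.020 and the KO libraries at 0.040, 0.066 and 0.041. The KO mean exceeded WT 2 in 44 members, WT 3 in 31 and WT 1 in 26. Without WT 2 the median difference was 0.016 with 31 members higher in KO, beside 6394 of all 13260 tested genes. Against WT 1 alone it was 0.013 with 26 members higher, beside 6579 of all tested genes. Without both WT 2 and KO 3 it was 0.026 with 27 members higher, beside 6547 of all tested genes. Without WT 1 it was 0.12 with 41 members higher.

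**Figure D2:**
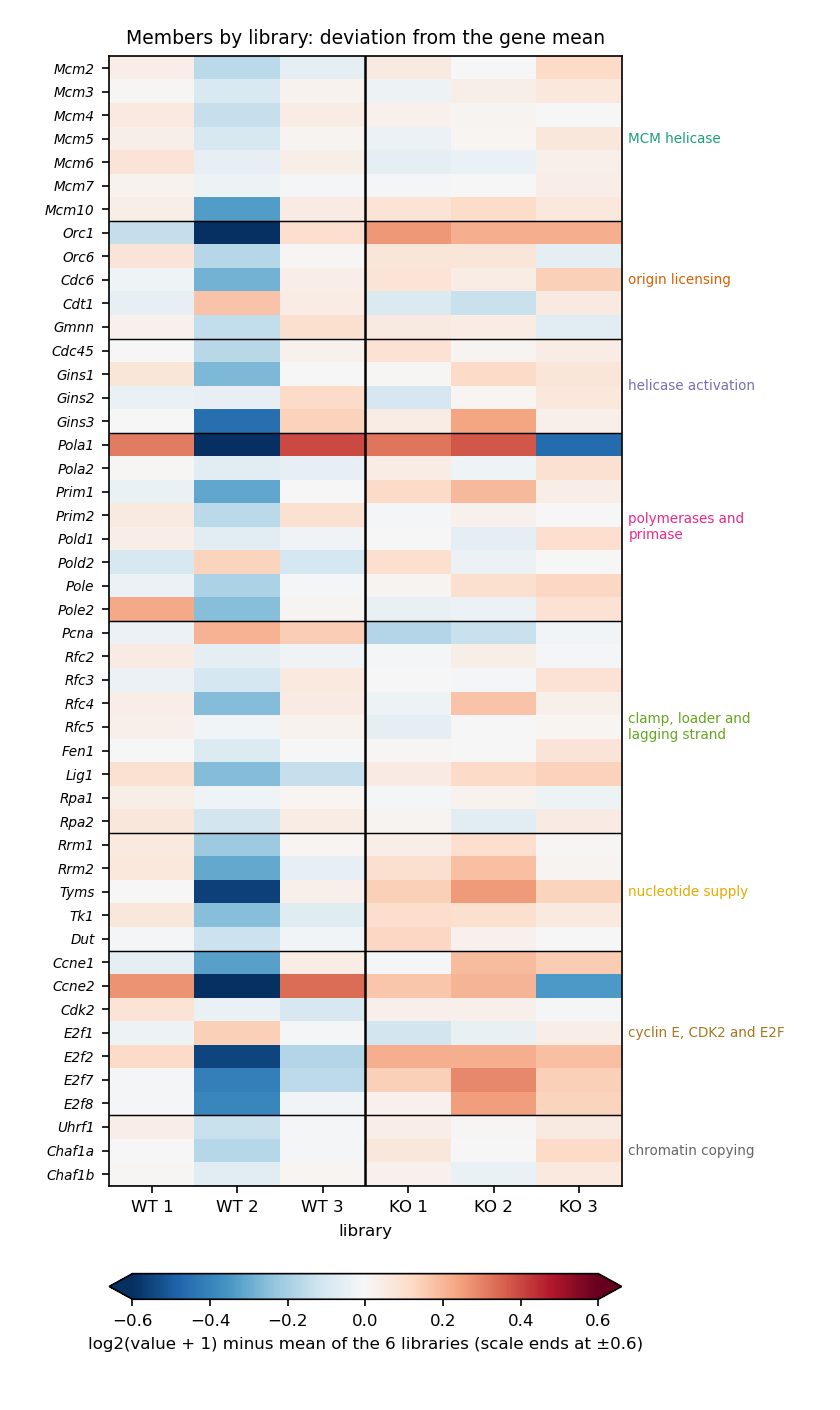
Log2 value of each member minus its mean over the 6 libraries, by library (columns, WT left and KO right) and role (rows), on a colour scale that ends at ±0.6. The WT 2 column is blue for most members, at -0.198 on average, whereas Cdt1, Pcna, E2f1 and Pold2 are red there.

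WT 1 decided which members passed the adjusted threshold. Without WT 1, WT 2 and WT 3 are the whole WT group, and genotype cannot be told apart from the split in Xist as well as in Y-linked RNA. There, 3 members were higher (E2f2, E2f7 and Lig1) and 1 lower (Pcna). Over all genes 12.8% were higher and 5.07% lower in that fit, so the members' share was below the background for higher genes. Leaving out any other single library gave 0 members past the threshold.

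Within the group, the members that stood apart from WT 2's low pattern were few. Over the 6 libraries, the Pearson r of a member with the mean of the other 47 members had a median of 0.82, given as a description of libraries that share that low value. It was negative in Cdt1, Pcna, E2f1 and Pold2. Over the 5 libraries without WT 2 the same median was 0.059, with 20 members below 0. The coefficient of variation over the 6 libraries had a median of 6.59% in the members and 10.6% over all tested genes, with Mcm7 lowest at 1.75% and Pola1 highest at 32.6%.

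The replicative helicase differed little between the genotypes. Mcm6, a ring subunit, was at 1307, 1196 and 1269 scaled counts in WT, against 1191, 1205 and 1265 in KO. The groups overlapped, with a log2 difference of -0.04 ± 0.052 (SE; limma adjusted p = 0.662). The other 5 ring subunits, Mcm2, Mcm3, Mcm4, Mcm5 and Mcm7, had log2 differences between 0.01 and 0.12 and overlapped too. Mcm7 was the steadiest member, at 723 ± 13.1 in WT, against 730 ± 13.8 in KO (SD, n = 3), and Mcm2 was at 888 ± 61.0 and 962 ± 38.0. Mcm10, which is not part of the ring and helps to activate it, was at 558, 431 and 563 in WT, against 576, 587 and 568 in KO. Its KO libraries lay above all WT libraries by a narrow gap from WT 1 and WT 3, and the log2 difference of 0.17 ± 0.11 (limma adjusted p = 0.388) was 0.04 without WT 2.

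Among the licensing factors, Orc1 and Cdc6 had the higher mean in KO and Cdt1 the lower, none of them past the test. Orc1 (ENSMUSG00000028587, chromosome 4) was at 101, 71 and 120 in WT, against 134, 130 and 130 in KO, the largest difference among the members, at 0.46 ± 0.20 on the log2 scale (limma adjusted p = 0.217). The KO libraries lay close together and above WT 3, the highest WT library, and the difference was 0.25 without WT 2 and 0.38 against WT 1. Cdc6, the ATPase that joins ORC to load the ring, was at 349, 292 and 365 in WT, against 376, 366 and 393 in KO. KO 2 exceeded WT 3 by a single scaled count, and the log2 difference was 0.18 ± 0.095 (limma adjusted p = 0.295). Cdt1, the partner of CDC6 in loading, was at 517, 602 and 551 in WT, against 504, 487 and 555 in KO. Here WT 2 was the highest library and the groups overlapped, with a log2 difference of -0.11 ± 0.079 (limma adjusted p = 0.433). Geminin, the CDT1 inhibitor encoded by Gmnn, was at 262 ± 22.6 and 265 ± 12.2, and Orc6 at 213 ± 18.4 and 222 ± 11 (SD, n = 3).

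CDC45 and the GINS complex turn the loaded ring into a working helicase. Of their 4 member genes, 3 had the higher mean in KO and none passed the test. The median log2 difference was 0.115, and 0.031 without WT 2. Gins3 was at 172, 125 and 189 in WT, against 177, 202 and 175 in KO, so the groups overlapped and WT 2 alone was low. Its log2 difference was 0.21 ± 0.17 (limma adjusted p = 0.491), and 0.03 without WT 2. Gins2 was at 287, 285 and 319 in WT, against 275, 297 and 308 in KO, a log2 difference of -0.02 ± 0.076 (limma adjusted p = 0.916). Cdc45 was at 259 ± 18.4 and 277 ± 6.56, and Gins1 at 154 ± 18.7 and 168 ± 6.56 (SD, n = 3).

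All 8 polymerase and primase genes had the higher log2 mean in KO, from 0.0052 for Pole2, whose mean on the linear scale was no higher in KO, to 0.23 for Prim1. Without WT 2 this count was 5 of 8. Prim1, the catalytic primase subunit, was at 280, 232 and 288 in WT, against 312, 329 and 296 in KO. Every KO library was above every WT library, with a log2 difference of 0.23 ± 0.10 (limma adjusted p = 0.220) that was 0.14 without WT 2. Pole, the catalytic subunit of polymerase epsilon, was at 849, 762 and 864 in WT, against 880, 930 and 948 in KO. Again no KO library reached down to WT, and the log2 difference was 0.16 ± 0.064 (limma adjusted p = 0.203). Their partner subunits did not show such a gap, with Prim2 at 312 ± 28.6 and 313 ± 4.16 and Pole2 at 138 ± 23.0 and 138 ± 7.23 (SD, n = 3). The delta subunits Pold1 and Pold2 had log2 differences of 0.03 and 0.04, and the alpha subunit Pola2 of 0.07.

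Pola1 and Ccne2 varied more within the groups than between them; they are described because of that, having been chosen after their values were seen. Pola1, the catalytic subunit of polymerase alpha on the X chromosome, was at 639, 267 and 678 in WT, against 643, 667 and 373 in KO. WT 2 and KO 3 were low and the other 4 libraries close together, and the log2 difference between genotypes was 0.16 ± 0.41 (limma adjusted p = 0.859). It changed sign to -0.28 without WT 2 and -0.23 against WT 1 alone, and was -0.0073 without WT 2 and KO 3. Ccne2, a cyclin E gene on chromosome 4, was at 379, 203 and 397 in WT, against 353, 363 and 248 in KO, low in the same libraries, and its log2 difference went from 0.02 with all libraries to -0.29 without WT 2. Its sister gene Ccne1 was at 247, 204 and 264 in WT, against 255, 292 and 285 in KO, with no such low value in KO 3.

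Ccne2 and Pola1 had the lowest GC content of the members in their longest GENCODE transcripts, at 36.3% and 41.5%, beside a median of 49.6% over the members and 49.4% over all tested genes. Over the 13254 tested genes with a transcript sequence, Spearman's rho of GC content was 0.40 with the log2 difference of WT 2 from the other WT libraries, and 0.39 with that of KO 3 from the other KO libraries. These are descriptions across genes, which are not independent and share the same libraries. The 851 tested genes with at most 40% GC had medians of -0.47 for WT 2 and -0.36 for KO 3, whereas the 2333 genes with 55% to 60% GC had 0.13 and 0.076. The 2703 genes with 40% to 45% GC, the range that holds Pola1, had -0.14 and -0.11. Pola1 itself was at -1.30 and -0.81, and Ccne2 at -0.93 and -0.53. The part of GC content in the low values of these 2 genes was not tested. Among the members the median was -0.17 in WT 2 but 0.0050 in KO 3, and 44 members lay lower in WT 2 than in the other WT libraries, against 24 in KO 3. After a GC correction, added after the data were seen, the members' median difference between genotypes was 0.083 with 43 higher in KO and 0 past the threshold.

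**Figure D3:**
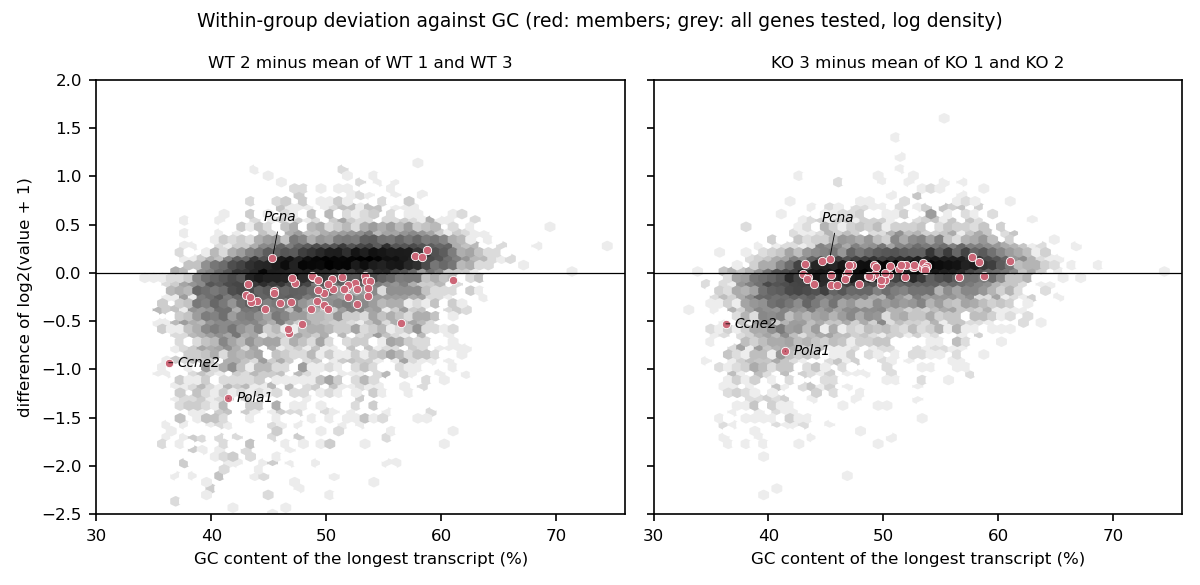
Log2 difference of WT 2 from WT 1 and WT 3 (left) and of KO 3 from KO 1 and KO 2 (right) against the GC content of the longest transcript in percent, for members (red) and all tested genes (grey, log density). Ccne2 and Pola1 lie low on both sides, and the other members lie mostly below 0 in WT 2 but around 0 in KO 3, with medians of -0.17 and 0.0050 over all members.

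Clamp, clamp loader and lagging strand genes included the member with the largest difference towards WT. Pcna (ENSMUSG00000027342, chromosome 2), the sliding clamp, was at 495, 587 and 562 in WT, against 449, 462 and 502 in KO. KO 3 exceeded WT 1, so the groups overlapped, and the log2 difference was -0.22 ± 0.082 (limma adjusted p = 0.184, unadjusted p = 0.0375). It was -0.29 without WT 1, where it passed with a limma adjusted p of 0.0438, and -0.07 against WT 1 alone. A pseudogene, Pcna-ps2, had its own row at a mean of 14.2 scaled counts, and how the counting divided reads between it and Pcna was not stated.

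The clamp loader subunits Rfc2, Rfc3, Rfc4 and Rfc5 had log2 differences between -0.03 and 0.11. The single-strand binding subunits Rpa1 and Rpa2 had -0.014 and -8.3e-05. All 6 overlapped between the groups. Lig1, which seals Okazaki fragments, was at 1012, 793 and 862 in WT, against 983, 1026 and 1044 in KO. WT 1 stood within the KO range, and the log2 difference was 0.20 ± 0.093 (limma adjusted p = 0.244). It was 0.30 without WT 1, with a limma adjusted p of 0.0261, and 0.0076 against WT 1 alone. Fen1, which trims the flaps that Lig1 then seals, was at 571 ± 17.9 in WT, against 593 ± 18 in KO (SD, n = 3).

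**Figure D4:**
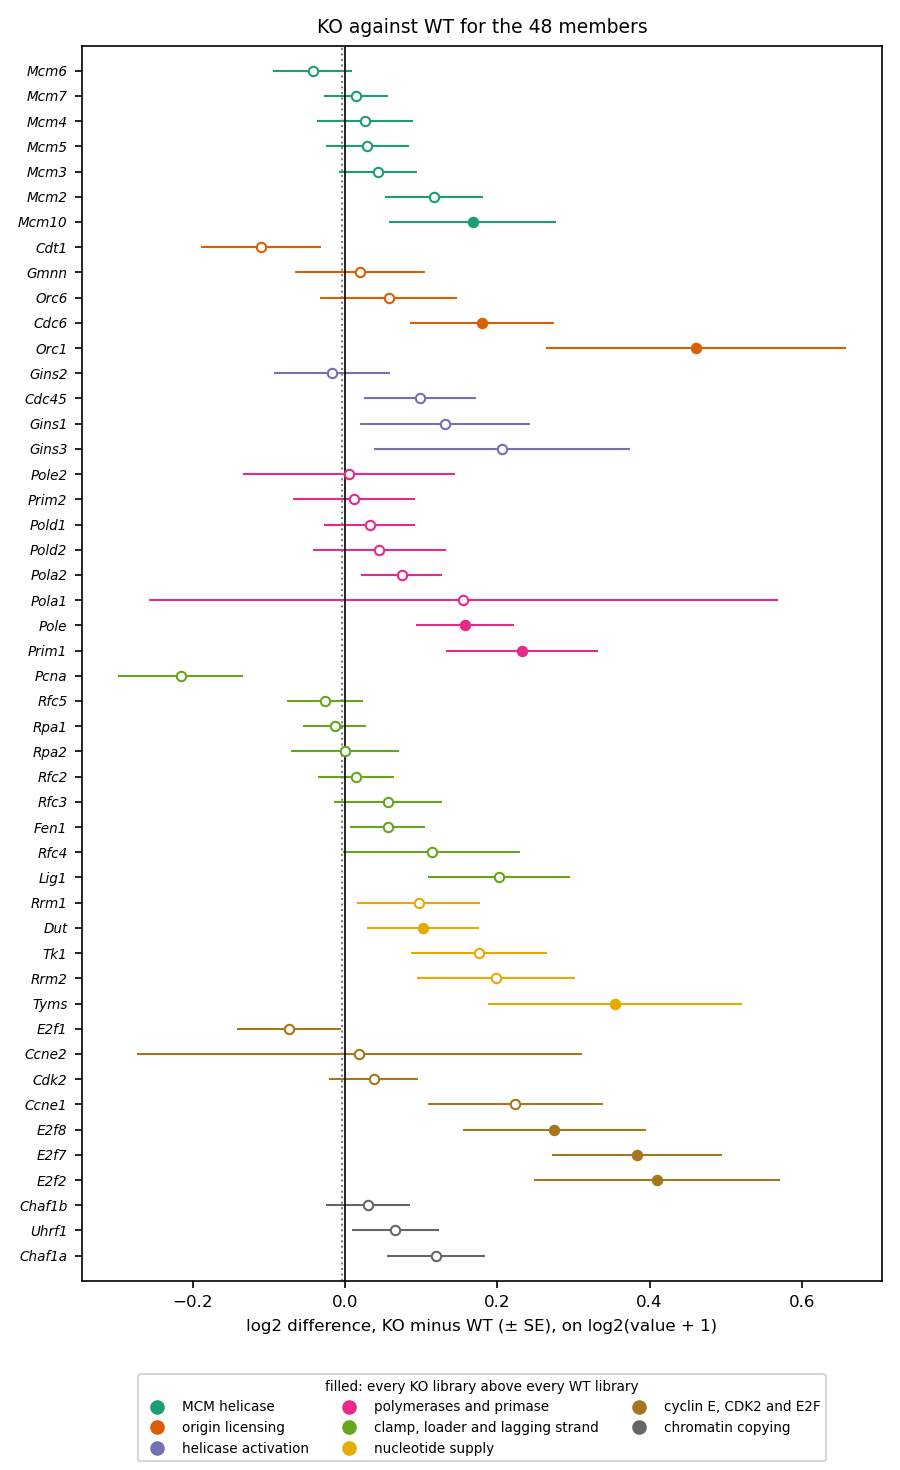
Log2 difference of KO minus WT for each member with its standard error, by role, with filled symbols where all KO libraries lay above all WT libraries. The 10 filled members lie between 0.10 and 0.46, the other 38 between -0.22 and 0.22, and Pola1 and Ccne2 have the widest errors.

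All 5 nucleotide supply genes had the higher mean in KO, with a median log2 difference of 0.18 that was 0.092 without WT 2. Tyms (ENSMUSG00000025747, chromosome 5), which makes thymidylate, was at 266, 180 and 272 in WT, against 294, 318 and 292 in KO. The KO libraries all lay above WT, and the log2 difference was 0.35 ± 0.17 (limma adjusted p = 0.25), or 0.16 without WT 2. Dut, which removes dUTP, was at 213, 196 and 212 in WT, against 234, 218 and 215 in KO, separated by a small gap, with a log2 difference of 0.10 ± 0.074 (limma adjusted p = 0.434). Rrm1, the large subunit of ribonucleotide reductase and the member with the highest mean per gene, was at 1293, 1067 and 1252 in WT, against 1274, 1329 and 1248 in KO. The groups overlapped, at a log2 difference of 0.10 ± 0.081 (limma adjusted p = 0.503). Rrm2, its small subunit, was at 552 ± 70.9 and 630 ± 36.0, and the thymidine kinase gene Tk1 at 327 ± 36.5 and 368 ± 6.43 (SD, n = 3).

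The cyclin E and E2F genes had the highest median log2 difference of the role groups, 0.22, which was 0.12 without WT 2. E2f7 (ENSMUSG00000020185, chromosome 10), a repressor, was at 385, 291 and 347 in WT, against 428, 473 and 427 in KO. Every KO library exceeded every WT library, and the log2 difference was 0.38 ± 0.11 (limma adjusted p = 0.158, unadjusted p = 0.0134). It was 0.27 without WT 2, 0.20 against WT 1 alone, and 0.48 without WT 1, where its limma adjusted p was 0.0265. E2f8, the other repressor of this kind, was at 558, 428 and 555 in WT, against 572, 667 and 616 in KO. Its groups did not overlap either, with a log2 difference of 0.27 ± 0.12 (limma adjusted p = 0.226).

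E2f2 (ENSMUSG00000018983, chromosome 4), an activator, was at 445, 280 and 363 in WT, against 478, 478 and 465 in KO. The KO libraries lay close together above a wide WT range, and the log2 difference was 0.41 ± 0.16 (limma adjusted p = 0.193). It was 0.57 without WT 1, with a limma adjusted p of 0.0245, and 0.090 against WT 1 alone. E2f1, the other activator listed, was at 561, 633 and 570 in WT, against 531, 555 and 589 in KO. WT 2 was its highest library and the groups overlapped, with a log2 difference of -0.07 ± 0.069 (limma adjusted p = 0.550). Cdk2, the kinase that cyclin E activates, was at 534 ± 33.8 in WT, against 547 ± 7.81 in KO (SD, n = 3).

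**Figure D5:**
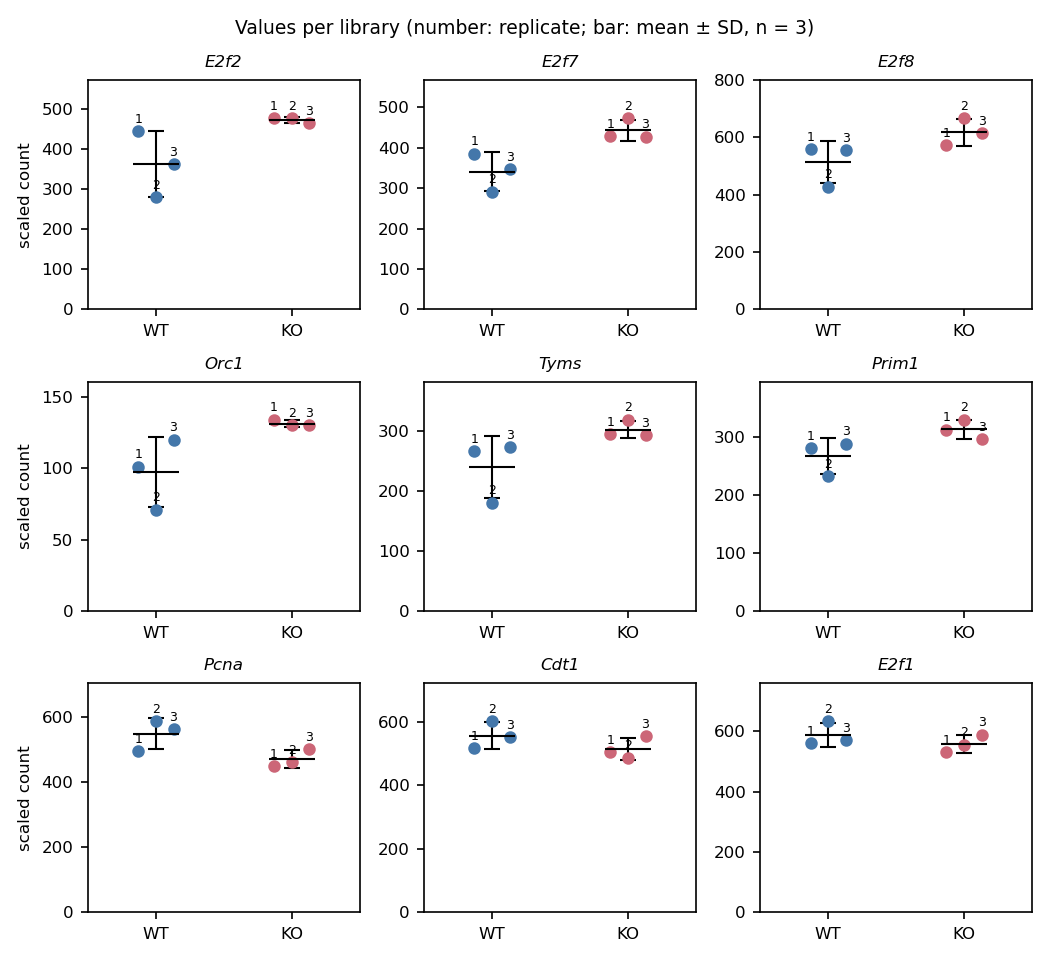
Scaled counts by library (points) with mean and SD per genotype (n = 3) for E2f2, E2f7, E2f8, Orc1, Tyms, Prim1, Pcna, Cdt1 and E2f1. WT 2 is the lowest point in the first 6 genes and the highest in Pcna, Cdt1 and E2f1.

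The 3 genes that copy chromatin behind the fork all had the higher mean in KO, at a median log2 difference of 0.07, and all 3 overlapped between the groups. Uhrf1, which brings DNA methyltransferase to newly made DNA, was at 855, 757 and 827 in WT, against 854, 834 and 862 in KO. The groups overlapped, with a log2 difference of 0.07 ± 0.057 (limma adjusted p = 0.521). Chaf1a, the large subunit of the histone chaperone CAF-1, was at 734, 652 and 729 in WT, against 769, 732 and 795 in KO, with a log2 difference of 0.12 ± 0.065 (limma adjusted p = 0.304). Chaf1b, its partner, was at 364 ± 10.4 and 372 ± 12.7 (SD, n = 3).

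Annotated genes on the opposite strand overlapped 15 of the members, counted over whole gene spans from start to end. Whether exons overlapped was not examined. Among these were Orc6, whose neighbour Vps35 had a mean of 1188 scaled counts, Gins2 with Gse1 at 852, Rfc4 with Eif4a2 at 851, and Orc1 with Gm12743 at 25.3. The kit marks strand, but the sources used here do not say whether the counting used it. Reads may therefore not be separated where exons of such pairs overlap.

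Other genes of the pathway were tested in the same fit, 113 of them in 7 lists beside a mitosis list. None passed the adjusted threshold, and 74 had the higher mean in KO, beside 49.1% of all tested genes, with a median log2 difference of 0.07. The groups did not overlap in 18 with KO above and 10 with KO below, beside 16.1% and 13.4% of all tested genes. At an unadjusted p under 0.05, 12 were higher and 7 lower, beside 14.7% and 9.68% of all tested genes. Without WT 2 the median was -0.0092 with 53 higher.

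In the list of other licensing and firing factors, 13 of 16 had the higher mean in KO. Mcmbp, which binds MCM subunits, was at 837, 842 and 853 in WT, against 748, 720 and 776 in KO, a log2 difference of -0.17 ± 0.045 (limma adjusted p = 0.158) with every KO library lower. Ticrr, a firing factor, was at 354, 245 and 308 in WT, against 392, 416 and 352 in KO, and overlapped by KO 3. Of 22 other polymerase and fork genes, 14 were higher in KO, among them the PCNA-binding factor gene Pclaf at 398 ± 62.1 and 456 ± 22.6. Rnaseh2c, a subunit of ribonuclease H2, was at 223, 209 and 222 in WT, against 203, 185 and 177 in KO, all lower (limma adjusted p = 0.186).

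The list of other nucleotide supply genes had 11 of 23 genes higher in KO, with log2 differences from -0.36 to 0.89. In 5 all KO libraries lay above WT and in 5 below, where 16.1% and 13.4% of all tested genes did so. Dctd, which deaminates dCMP towards thymidylate, was at 80, 57 and 54 in WT, against 116, 115 and 121 in KO, a log2 difference of 0.89 ± 0.17 (limma adjusted p = 0.158). Shmt1, which feeds one-carbon units to the same pathway, was at 90, 67 and 70 in WT, against 137, 119 and 129 in KO, a log2 difference of 0.76 ± 0.15 (limma adjusted p = 0.158). Both passed without WT 1, with limma adjusted p of 0.0029 and 0.0061, and in both WT 1 was the highest WT library.

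Among 15 other E2F, RB and DREAM factors, 9 were higher in KO. Foxm1, a driver of G2 and mitotic genes, was at 696, 482 and 642 in WT, against 743, 778 and 740 in KO (log2 difference 0.33 ± 0.14, limma adjusted p = 0.206), while Lin37, a DREAM subunit, was at 156 ± 10 and 136 ± 11.6. Of 17 cyclins, kinases and inhibitors, 12 were higher in KO, with all KO libraries above WT in 8 and below in 2, Cdk6 and Cdkn1c, where 16.1% and 13.4% of all tested genes did so. The 7 inhibitor genes of this list did not share a direction. Cdkn2a, Cdkn2b and Cdkn2c had all KO libraries above WT, Cdkn1a, Cdkn1b and Cdkn2d overlapped, and Cdkn1c lay wholly below. Cdkn1c, named after its values were seen, was at 63, 135 and 145 in WT, against 38, 42 and 54 in KO, the widest log2 difference of these lists at -1.26 ± 0.35 (limma adjusted p = 0.158). Cdkn2b was at 143, 128 and 85 in WT, against 245, 216 and 178 in KO (log2 difference 0.86 ± 0.22, limma adjusted p = 0.158). Cdkn2a was at 122, 125 and 94 in WT, against 179, 177 and 149 in KO (0.57 ± 0.15 on the log2 scale, limma adjusted p = 0.158).

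Checkpoint genes overlapped between the groups in all 8 cases. Over all tested genes, 16.1% had every KO library above WT and 13.4% below, and the rest overlapped too. Chek1 was at 180 ± 44.3 and 207 ± 28.0 and Rad1 at 136 ± 11 and 120 ± 11.7 (SD, n = 3). Of 12 other chromatin copying genes, 9 were higher in KO. Cenpa, the centromeric histone, was at 497, 483 and 477 in WT, against 570, 593 and 506 in KO, and its chaperone gene Hjurp at 1315, 1098 and 1235 in WT, against 1394, 1449 and 1339 in KO. KO lay above WT in every library of both, with limma adjusted p of 0.174 and 0.184.

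Mitosis genes were also low in WT 2. All 20 had the higher mean in KO, beside 49.1% of all tested genes, with a median log2 difference of 0.29. WT 2 was lowest in all 20, beside 27.7% of all tested genes. In 9 all KO libraries lay above WT and in 0 below, where 16.1% and 13.4% of all tested genes did so. Without WT 2 the median was 0.074 with 15 higher, and without WT 2 and KO 3 it was 0.14 with all 20 higher. Plk1, a mitotic kinase, was at 469, 327 and 446 in WT, against 541, 507 and 503 in KO, and Aurkb, another, at 408, 291 and 394 in WT, against 478, 449 and 440 in KO. Neither passed, with limma adjusted p of 0.208 and 0.198. Averaged over the list, the log2 value minus the mean of the libraries was -0.78 in WT 2 and -0.16 in KO 3, against -0.198 and 0.041 over the members.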

How the data were processed

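Macrophages grown from marrow of tumour-bearing mice (3 WT and 3 KO libraries) were compared in a single table of 17313 genes. Per the submitters' processing notes, the tools were DESeq2 1.36.0, featureCounts 2.0.3, STAR 2.7.10a, Trimmomatic 0.39 and Picard 2.27.4, with mm10; their roles are not given in the sources used here. The deposited values are whole numbers treated as a score, a count scaled per library and rounded, because totals were nearly equal and WT 2 never held the value 6; the test planned for raw counts was therefore not used. The depth before scaling is not recorded in the table, so no counting interval is given. The 13260 genes that reached 10 in 3 or more libraries entered limma 3.58.1 (R 4.3.3, intensity trend, two-sided, Benjamini-Hochberg at 0.05) on log2(value + 1), with group as the only term; fold changes of low genes are understated on this scale. The fit was tested on simulated data. Exon unions and GC content came from GENCODE M21 and promoters from RefSeq (GRCm38.p6). Full values are given for members without overlap and, per role group, for those with the highest mean and the largest difference, and for the 2 genes with the smallest p in each other list. The members and lists were chosen with earlier results of these data known. Alternatives covered normalization, filter, pseudocount, each library left out, the replicate block and motifs.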

Additional observations from a re-analysis of the deposited data

How the results depend on the processing

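With all 6 libraries, 0 genes passed in either direction under each scaling, filter and pseudocount tried. Leaving out each library in turn gave 0 to 1691 genes higher and 0 to 672 lower, and 0 to 3 members higher and 0 to 1 lower; the highest values came without WT 1, and the cause was not tested. At an unadjusted p under 0.05, 1947 genes were higher and 1283 lower, with 3 members higher and 1 lower. The number of members higher in KO was 31 to 41 and their median log2 difference 0.016 to 0.115 over the libraries left out, and against WT 1 alone the number was 26. Same-numbered libraries did not pair across genotypes: over 13260 genes their deviations correlated at 0.534, -0.364 and 0.024, and the highest correlation was between WT 2 and KO 3 (0.618). With the replicate block, 0 genes passed, and the median difference was 0.06 with 40 members higher. Among 739 values of 37 named genes, 723 kept direction and call, 9 passed only without WT 1 and 7 changed sign. Those 7 were Mcm6 at 0.0405 under cyclic loess, Gins2 at 0.0348 without WT 3, 0.0281 without KO 1, 0.0298 against WT 1 alone and 0.0132 after GC correction (range -0.0534 to 0.0348 over the libraries left out), and Rrm1 at -0.011 and Uhrf1 at -0.0086 against WT 1 alone. The share of member promoters with a string was 12.5% for TTTGGCGG, 0.0% for TTTCCCGG, 15.0% for TTGGCGGG, 17.5% for TTTGAA and 62.5% for CCAAT, against 35.0% for the main E2F strings. With 3 libraries a group, an exact permutation test cannot go below 0.1. The runs without WT 2 and KO 3 together and with GC correction were chosen after seeing the data.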
